A study of Homo sapiens with 6 samples.

Results

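The OAS, IFIT and MX genes encode antiviral effectors that cells switch on in response to interferon. The set examined here was chosen by exact gene symbol and holds 10 genes, OAS1, OAS2, OAS3, OASL, IFIT1, IFIT2, IFIT3, IFIT5, MX1 and MX2, of 26822 symbols in the table. Each of the 10 members had 1 row of its own. Their mRNA levels were compared in MCF10A cells, an established, non-tumorigenic human breast epithelial line, after depletion of the transcription factor PAX9.

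The siNT group comprised 3 samples that received non-targeting siRNAs, and the siPAX9 group comprised 3 samples that received siRNAs against PAX9. In both groups the siRNAs were used at 30 nM for 72 hours and were introduced by reverse transfection with a lipid reagent, in cells grown with horse serum, epidermal growth factor, hydrocortisone, cholera toxin and insulin. No untransfected sample was compared. Poly(A)+ RNA was sequenced from one end of each fragment. The table gives 1 FPKM for each gene and group, a value that the authors made from the samples of the group together. FPKM counts sequenced fragments scaled by transcript length and by the total of mapped fragments, so levels can be set side by side between genes. The table gives neither the spread between samples nor the depth of each sample, no test of a difference could be made from these values, the test columns of the authors were not used, and every fold given is a ratio of 2 combined values without a replicate check.

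OAS proteins bind double-stranded RNA and make short oligoadenylates, second messengers that set off the degradation of viral and cellular RNA. IFIT proteins are built of tetratricopeptide repeats. Among them, IFIT1 binds the cap end of RNAs that lack the methylation of host mRNA and blocks their translation. MX proteins are dynamin-like GTPases that assemble on viral ribonucleoproteins or capsids. Interferon receptors signal to these genes through a transcription factor complex that includes STAT2 and IRF9 and binds the interferon-stimulated response element (ISRE).

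PAX9, the siRNA target, stood at 2.80 FPKM in the siNT group against 0.325 in siPAX9. The siPAX9 level was 0.116 of the siNT level, so the target was low in the group labelled as depleted. All 13 markers of breast epithelial cells had a mean FPKM of at least 1, with KRT17 the most abundant at 1718 in siNT and 2088 in siPAX9. The basal keratin KRT5 stood at 1558 and 1807, and the adhesion molecule CDH1 at 45.3 and 124. Other markers of the list were lower in siPAX9, with EPCAM at 34.3 in siNT and 16.7 in siPAX9, KRT18 at 212 and 119 and CD44 at 169 and 92.5. Markers of the labelled cell type were thus present in both groups.

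All 10 members had a higher FPKM in siPAX9 than in siNT. Of the 10, 7 were at least 2-fold higher, all were at least 1.5-fold higher, and none was lower. With 1 added to each FPKM, 6 of the 10 were at least 2-fold higher, since MX2 was then within 2-fold. At that setting 4.80% of genes with a mean FPKM over both groups of at least 1 were at least 2-fold higher, against 6 of 9 members. The share without that minimum was not computed. The shares that follow are without an added value. Among the 18462 genes with an FPKM above 0 in both groups, 13.7% were at least 2-fold higher in siPAX9. With a mean FPKM over both groups of at least 1, 13145 genes were measured, of which 6.37% were at least 2-fold higher, 6.57% were at least 2-fold lower and 13.3% were at least 1.5-fold higher. Of the members, 9 had a mean of at least 1 and 6 of these 9 were at least 2-fold and all 9 at least 1.5-fold higher, while MX2 lay under that minimum. IFIT1, OAS2 and MX1 reached it only through their siPAX9 value. With the minimum set on siNT alone, 6 members remained, of which 3 were at least 2-fold higher, against 4.29% of genes. The median log2 change, log2 of siPAX9 over siNT, was 1.83 over all 10 members and 0.01 over all genes with an FPKM above 0 in both groups. It was 1.54 over the 9 members with a mean of at least 1 against -0.07 over all measured genes, and 1.11 over the 6 members with an siNT FPKM of at least 1 against -0.09 over all such genes. RNA came from whole cultures, so more cells with a transcript and more transcript per cell cannot be told apart.

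**Figure D1:**
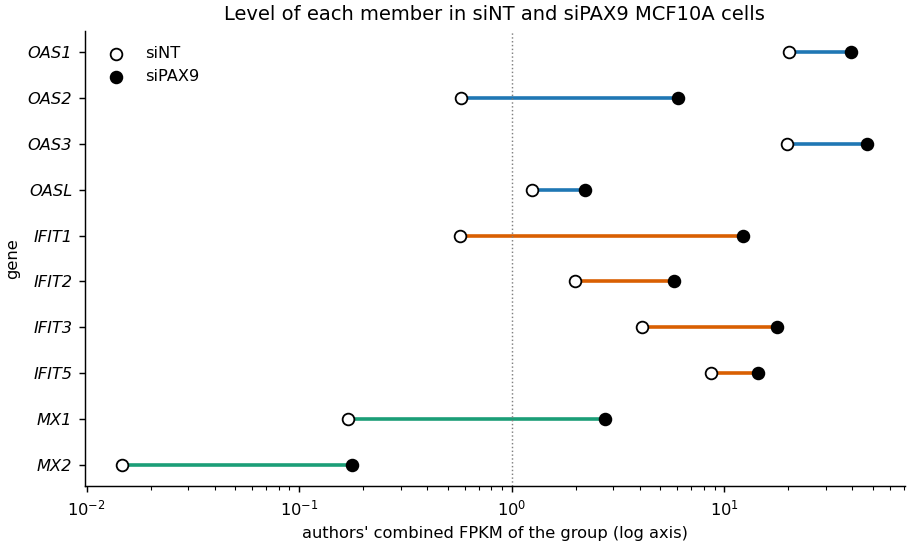
Authors' combined FPKM of each member on a log axis, with siNT as open circles and siPAX9 as filled circles joined by a line coloured by family, and a dotted line at an FPKM of 1. Every filled circle lies to the right of its open circle, and 4 members lie below 1 in siNT but only MX2 in siPAX9.

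The OAS family covered a wide range of levels. OAS1, one of the enzymes that make oligoadenylates, stood at 20.0 FPKM in the siNT group against 39.2 in siPAX9, a 1.95-fold difference just under the 2-fold threshold. OAS3, the largest OAS enzyme, which prefers long double-stranded RNA, stood at 19.7 FPKM in the siNT group against 47.0 in siPAX9 and was 2.39-fold higher. These were the most abundant members in both groups, with OAS1 ahead of OAS3 in siNT and behind it in siPAX9. OAS2, an enzyme of the same kind, stood at 0.574 FPKM in the siNT group against 6.05 in siPAX9, a 10.5-fold difference. OASL, a relative that does not make oligoadenylates and binds the RNA sensor RIG-I, stood at 1.24 FPKM in the siNT group against 2.21 in siPAX9 and was 1.77-fold higher. OAS2 thus lay below OASL in siNT, at 0.461 of its level, and above it in siPAX9, at 2.74 times its level. Summed over the family, the FPKM was 41.6 in siNT and 94.5 in siPAX9, a ratio of 2.27, and OAS1 and OAS3 made up 48.3% and 47.4% of the sum in siNT.

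The IFIT family held the member with the highest ratio. IFIT1, which binds RNA whose cap lacks ribose methylation, stood at 0.571 FPKM in the siNT group against 12.2 in siPAX9, a 21.3-fold difference. IFIT3, which binds IFIT1 and stabilises it, stood at 4.08 FPKM in the siNT group against 17.7 in siPAX9 and was 4.34-fold higher. IFIT2, which also forms complexes with IFIT1 and IFIT3, stood at 1.98 FPKM in the siNT group against 5.78 in siPAX9 and was 2.91-fold higher. IFIT1 and its binding partners were therefore all past 2-fold. IFIT5, which binds RNA without forming those complexes, had the lowest ratio of the 10 without a pseudocount, at 8.62 FPKM in the siNT group against 14.4 in siPAX9, a 1.67-fold difference.

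The makeup of the family differed between the groups. IFIT5 supplied 56.5% of the summed IFIT FPKM in siNT and 28.8% in siPAX9. IFIT1 supplied 3.74% in siNT and 24.3% in siPAX9. IFIT3 took the place of IFIT5 as the most abundant IFIT mRNA in siPAX9, where it supplied 35.4% of the sum. The summed FPKM was 15.3 in siNT and 50.1 in siPAX9, a ratio of 3.28.

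**Figure D2:**
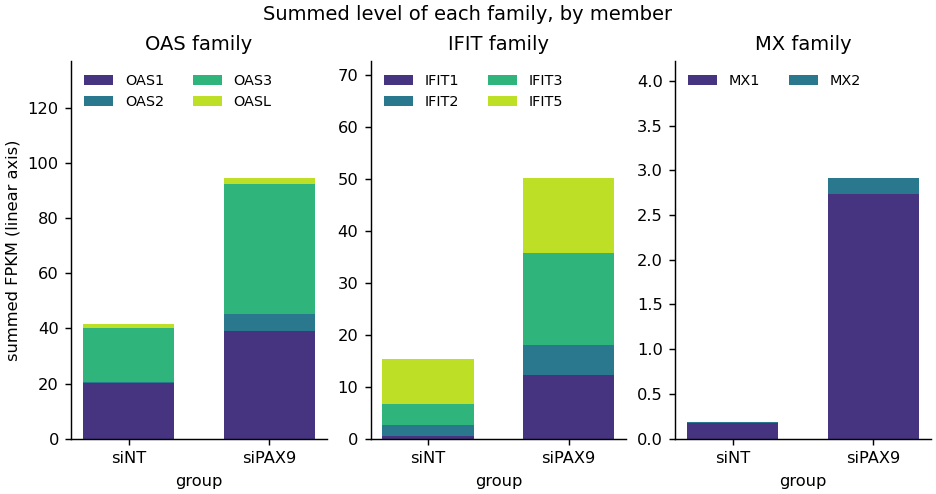
Summed FPKM of the OAS, IFIT and MX families in siNT and siPAX9 on linear axes that start at 0, with each bar divided by member and each family on its own scale. The IFIT bar is mostly IFIT5 in siNT and is spread over IFIT3, IFIT5 and IFIT1 in siPAX9.

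The MX genes had the lowest levels of the set in siNT, and in siPAX9 OASL lay between MX1 and MX2. MX1, whose protein restricts influenza viruses, stood at 0.170 FPKM in the siNT group against 2.73 in siPAX9, a 16.1-fold difference. With 1 added to each FPKM, the log2 change of MX1 was 1.67 in place of 4.01. MX2, whose protein restricts HIV and herpesviruses, stood at 0.0147 FPKM in the siNT group against 0.177 in siPAX9, a 12.1-fold difference between values that both lay far under 1. With 1 added to each FPKM, MX2 was no longer past 2-fold, at a log2 change of 0.21 in place of 3.59. With the 3408 bases of its canonical transcript, the siNT value of MX2 corresponds to 0.0501 fragments in 1000000 mapped and the siPAX9 value to 0.604. The corresponding values of MX1 are 0.473 and 7.59, and those of IFIT1 are 2.46 and 52.3. Both values of MX2 thus lie under 1 fragment in 1000000 mapped.

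Across the families, the 4 members with an FPKM below 1 in siNT, OAS2, IFIT1, MX1 and MX2, had the 4 highest ratios. A ratio contains the siNT value, so these orders are not independent of each other. With 1 added to each FPKM the order was another one, with IFIT3 above MX1, and OASL and MX2 below IFIT5. The order also differed on the scale of FPKM differences. OAS3 had the largest difference, 27.3 FPKM, followed by OAS1 with 19.1, IFIT3 with 13.6 and IFIT1 with 11.6, whereas MX2 differed by 0.163 FPKM. Among the 9 members other than MX2, the highest level was 118 times the lowest in siNT and 21.3 times the lowest in siPAX9, so the levels lay closer together in siPAX9. The order of levels within a family was reversed between the groups for 4 of 13 pairs, OAS1 with OAS3, OAS2 with OASL, IFIT1 with IFIT2 and IFIT3 with IFIT5.

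Of the 13145 measured genes, 70 had a higher log2 change than IFIT1, 80 a higher one than MX1 and 112 a higher one than OAS2. IFIT1, MX1 and OAS2 reached the minimum mean only through their siPAX9 value, so these ranks rest on low siNT values. Ranks with 1 added to each FPKM or with the minimum on siNT alone were not computed. IFIT3 was exceeded by 267 genes and OAS3 by 611. At the other end, IFIT5 was exceeded by 1300 genes, 9.89% of those measured, so many genes outside the set exceeded it. At least 4-fold higher were 5 of the 10 members, IFIT1, IFIT3, OAS2, MX1 and MX2, against 5.75% of genes with an FPKM above 0 in both groups. With a mean of at least 1 they were 4 of 9, against 2.25% of genes, and with an siNT FPKM of at least 1 only IFIT3 of 6, against 0.971%. With 1 added to each FPKM, IFIT3, MX1 and MX2 were under 4-fold, at log2 changes of 1.88, 1.67 and 0.21. The share of all genes past 4-fold at that setting was not computed.

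**Figure D3:**
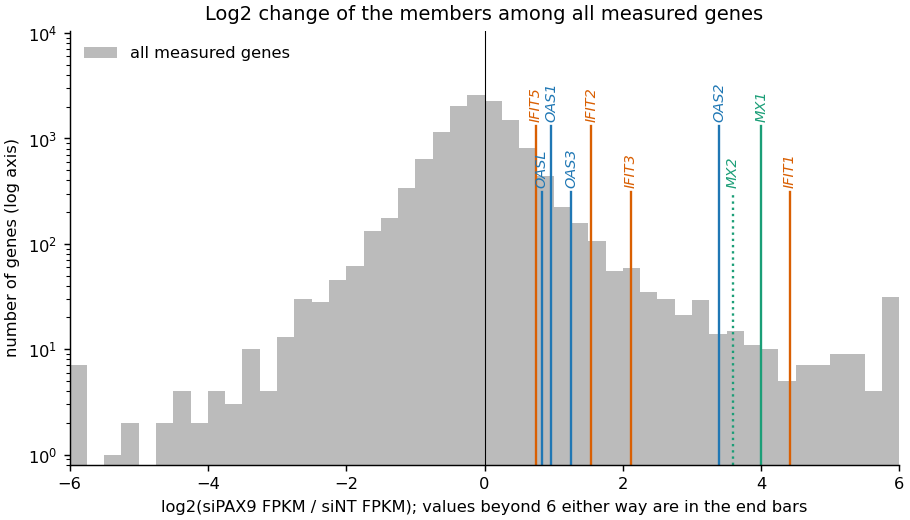
Number of measured genes, on a log axis, by log2(siPAX9 FPKM / siNT FPKM) in grey bars, with a coloured line at the value of each member and a dotted line for MX2, whose mean FPKM was under 1. All 10 lines lie to the right of 0, from 0.74 for IFIT5 to 4.41 for IFIT1.

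The members lie at 4 places in the genome. IFIT2, IFIT3, IFIT1 and IFIT5 lie in this order within 119054 bases of chromosome 10 (hg19, chr10:91061706-91180759). OAS1, OAS3 and OAS2 lie in this order within 104947 bases of chromosome 12 (chr12:113344582-113449528), and OASL lies apart on that chromosome (chr12:121458095-121477045). MX2 and MX1 lie together on chromosome 21 (chr21:42733950-42831141). Members near each other could differ widely in ratio, although MX1 and MX2 were both over 10-fold higher. IFIT1, with the highest ratio, lies 8080 bases from IFIT5, with the lowest, and OAS2, at 10.5-fold, lies 4818 bases from OAS3, at 2.39-fold.

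The nearest measured genes around each place, 2 on each side and 16 in all, gave a local comparison. Of these 16 neighbours, 5 had a higher FPKM in siPAX9 and 11 a lower one, with 1 at least 2-fold higher and 3 at least 2-fold lower, and their median log2 change was -0.44. Of all 13145 measured genes, 55.4% were lower in siPAX9, 6.37% were at least 2-fold higher and 6.57% at least 2-fold lower, and the median log2 change was -0.07. LIPA, a lysosomal lipase gene next to IFIT2, stood at 42.8 FPKM in the siNT group against 54.5 in siPAX9. On the other side of the IFIT genes, the kinesin gene KIF20B stood at 8.36 FPKM in the siNT group against 3.66 in siPAX9. RIPK4, a kinase gene of epithelial differentiation beyond MX1, was the neighbour at least 2-fold higher, at 13.8 in siNT and 39.2 in siPAX9.

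**Figure D4:**
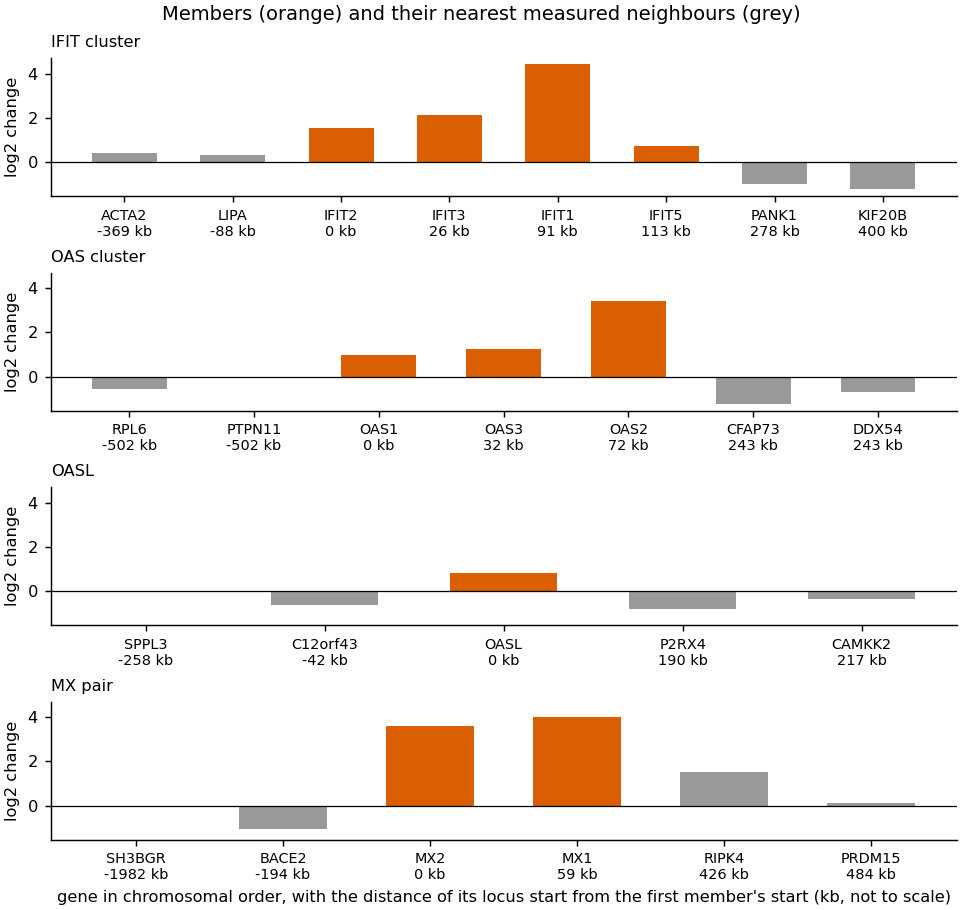
Log2 change of the members in orange and of the 2 nearest measured genes on each side in grey, in chromosomal order at each of the 4 places, with distances in kb under the names. The bars of the members are all above 0, whereas 11 of the 16 grey bars are below it.

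Annotated genes on the opposite strand overlap some members. In GENCODE, an isoform of LIPA spans IFIT1, IFIT2 and IFIT3 on the other strand, but its exons share 0 bases with their canonical exons. A long noncoding RNA on the opposite strand shares 92 of the 1631 exonic bases of OAS1, and another shares 236 of the 2776 exonic bases of MX1. The sources used here do not say whether strand was used in counting, so reads from those stretches of OAS1 and MX1 cannot be assigned to a strand. The members of each family are also paralogs, and how the authors divided reads that match more than 1 of them is not given in the sources used here.

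The promoters of the members were searched for the motifs of the interferon pathway. RefSeq windows of 300 bases, 250 before to 50 after a transcription start (GRCh38.p14), were found for 6 members, OAS1, OAS3, IFIT1, IFIT3, IFIT5 and MX1, with 9 windows in all, and not for OAS2, OASL, IFIT2 and MX2. The ISRE core was written as GAAA, any 2 bases, GAAA, on both strands. It was present in 7 of their 9 windows, against 3.57% of all 35116 windows, and in 5 of the 6 members, against 4.38% of all symbols with a window. OAS3, IFIT1, IFIT3 and IFIT5 had at least 2 matches in a window, as did 0.311% of all symbols. The window of OAS1 had no such match. The gamma-activated site, TTC, any 3 bases, GAA, was found in a window of OAS1 and a window of MX1, where it overlaps the ISRE core, and in 9.38% of all symbols. Among 49 other interferon response effectors, 27 of 44 with a window held the ISRE core.

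The stretches around the matches upstream of the start are shown for the members with an ISRE core, on the plus strand of GRCh38.p14, so that the spacing of the matches can be compared. Capitals mark the ISRE core or its reverse complement.
IFIT1, chr10:89392497-89392539: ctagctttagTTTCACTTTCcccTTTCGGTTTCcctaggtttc
IFIT3, first window, chr10:89327831-89327894: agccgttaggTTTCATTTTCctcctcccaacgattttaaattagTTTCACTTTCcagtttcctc
IFIT3, second window, chr10:89332425-89332497: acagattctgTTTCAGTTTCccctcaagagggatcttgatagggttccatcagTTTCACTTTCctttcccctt
IFIT5, chr10:89414513-89414567: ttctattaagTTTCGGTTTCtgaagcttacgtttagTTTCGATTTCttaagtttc
OAS3, chr12:112938321-112938473: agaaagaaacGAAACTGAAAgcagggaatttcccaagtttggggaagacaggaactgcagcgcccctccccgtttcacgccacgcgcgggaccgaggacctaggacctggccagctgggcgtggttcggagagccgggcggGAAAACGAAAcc
MX1, the third window, chr21:41431844-41431873: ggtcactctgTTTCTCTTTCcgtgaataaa

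The 2 matches of IFIT1, the member with the highest ratio, begin at -116 and -103 from the start. IFIT5, with the lowest ratio, had the most matches in a window, 3, of which one runs into the transcribed part and is not shown. The number of matches thus did not follow the order of the ratios in these 6 genes. The other ISRE core of MX1 lies in its first window, beginning at position 12 after the start.

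Most of the ligands that act upstream of the members were at or near 0 in both groups. Of 9 interferon genes, only IFNE, an interferon of epithelia, had a mean FPKM of at least 1, with 1.13 in siNT and 1.36 in siPAX9. IFNB1, encoding interferon beta, was at 0.0547 and 0.0566, the lambda interferons IFNL1 and IFNL2 were listed at 0 in siNT and at 0.0597 and 0.0735 in siPAX9, and IFNA2, IFNG and IFNL3 were listed at 0 in both. Earlier times than 72 hours were not measured. Of 8 measured receptor and kinase genes, none was at least 2-fold higher and 1 was at least 2-fold lower, against 6.37% and 6.57% of all measured genes. The lower one was the interferon gamma receptor gene IFNGR2, at 99.5 in siNT and 35.4 in siPAX9.

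The transcription factors that act on the members shared their direction in part. Of 7 measured, 2 were at least 2-fold higher, against 6.37% of all measured genes. These 2 were IRF7, at 1.73 FPKM in siNT and 8.28 in siPAX9, and IRF9, whose row is shared with RNF31, at 14.0 and 29.4. STAT2 was 1.63-fold higher, whereas IRF2, which can repress interferon-responsive genes, was at 17.9 in siNT and 11.0 in siPAX9. Of 8 measured sensors and adaptors, 1 was at least 2-fold higher and 1 at least 2-fold lower, against 6.37% and 6.57% of all measured genes. The higher one was DDX58, encoding the RNA sensor RIG-I, at 3.92 in siNT and 8.85 in siPAX9. The lower one was TMEM173, encoding the DNA-sensing adaptor STING, at 36.1 and 10.5. Among 6 negative regulators, SOCS3 was at 21.0 in siNT and 3.32 in siPAX9. USP18, at 0.904 and 2.01, and SOCS1, at 0.506 and 2.41, were at least 2-fold higher but reached the minimum only through their siPAX9 value.

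Genes whose products work with the OAS or IFIT proteins were examined beside them. PDE12, which degrades the oligoadenylates that OAS enzymes make, was at 10.2 FPKM in siNT and 11.7 in siPAX9, a 1.14-fold difference beside the 2.27-fold difference of the summed OAS genes. CMTR1, the cap ribose methyltransferase whose mark keeps IFIT1 off host mRNA, was at 8.51 in siNT and 9.23 in siPAX9, beside the 21.3-fold difference of IFIT1. Of 6 IFIT partners and cap-modifying enzymes none was at least 2-fold higher, and 1, the translation factor subunit EIF3E, was at least 2-fold lower, at 468 and 226. The shares of all measured genes were 6.37% higher and 6.57% lower. Of the relatives of the MX genes among the large GTPases, 5 were measured and 2 were at least 2-fold higher, against the same 6.37%. Both passed by a narrow margin, GBP1 at 4.89 in siNT and 9.80 in siPAX9 and GBP3 at 5.29 and 10.6. The other measured relatives were more abundant and within 2-fold. DNM2 was at 23.1 in siNT and 26.8 in siPAX9, DNM1L at 27.3 and 24.4 and GBP2 at 19.5 in both groups. Of the relatives with a mean under 1, as that of MX2 was, GBP4 was at 0.00776 in siNT and 0.0514 in siPAX9, GBP5 at 0.0218 and 0.0874 and DNM3 at 0.198 and 0.441, whereas DNM1 was lower in siPAX9, at 0.711 and 0.376.

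The members were then set against 49 other interferon response effectors, of which 43 were measured. Of these 43, 14 were at least 2-fold higher in siPAX9, or 32.6%, 4 were at least 2-fold lower, or 9.30%, and the median log2 change was 0.50. The shares of all measured genes were 6.37% and 6.57%. HERC6, CMPK2, SAMD9L, RSAD2 and ISG20 reached the minimum only through their siPAX9 value, and the row shared by IFI44 and IFI44L counts for both. With an siNT FPKM of at least 1, 10 of 38 effectors were at least 2-fold higher, against 4.29% of all genes. With rows of 1 symbol 11 of 39 effectors were, against 6.15% of genes. After centring on the median of all measured genes, 15 effectors were at least 2-fold higher and 2 lower. The shares of all measured genes were then 7.08% and 5.68%. IFI6 and IFI27 had higher ratios than any member, at 10.7 and 4.93 FPKM in siNT and 339 and 111 in siPAX9, that is 31.5-fold and 22.4-fold. HERC6, the row shared by IFI44 and IFI44L, the ubiquitin-like modifier ISG15, CMPK2, SAMD9L, SAMD9 and DDX60 were between 6.04-fold and 10.6-fold higher, a range that holds OAS2. UBA7, the activating enzyme of ISG15, whose row also carries MIR5193, was 4.52-fold higher and RSAD2 4.32-fold, beside the 4.34-fold of IFIT3, and TNFSF10 and PARP9 were 2.53-fold and 2.03-fold higher.

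Of the 43 measured effectors, 32 were higher in siPAX9 and 11 were lower, so some did not share the direction of the members. IFITM2 and IFITM3, membrane proteins that block virus entry, were far more abundant than any member and lower in siPAX9, at 811 and 1353 FPKM in siNT and 278 and 631 in siPAX9. LY6E, at 369 and 182, and PSMB9, at 6.28 and 3.12, were also at least 2-fold lower. Both lay close to the threshold, at log2 changes of -1.02 and -1.01, and were within 2-fold after centring. Of the abundant effectors within 2-fold, B2M was at 1011 and 1209 and HLA-C at 144 and 181, both higher in siPAX9. IFI16 was lower, at 146 in siNT and 79.9 in siPAX9. The higher levels seen for all 10 members therefore did not extend to every interferon-responsive gene.

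**Figure D5:**
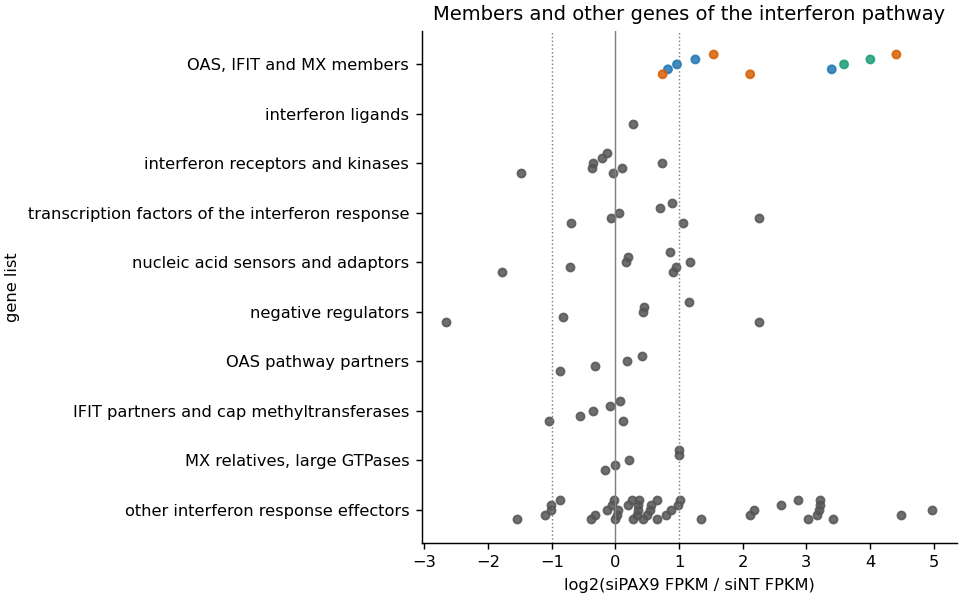
Log2(siPAX9 FPKM / siNT FPKM) of the 10 members, coloured by family (blue OAS, orange IFIT, green MX), and in grey of the measured genes of each list, with vertical spread within a list for legibility only and dotted lines at 2-fold. The members lie between 0.74 and 4.41, whereas the lists of receptors, partners and effectors have genes on both sides of 0.

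Markers of other cell types were examined beside the values of the members. Of 10 leukocyte markers, 3 had a mean FPKM of at least 1, and the list summed to 18.8 in siNT and 65.9 in siPAX9, with CD14 the most abundant at 14.4 and 56.5 and CSF1R at 0.699 and 4.69. PTPRC, the defining leukocyte marker, was at 0.0166 and 0.0922, and CD3E and CD4 were listed at 0 in both groups. Of 5 markers of plasmacytoid dendritic cells, a major source of interferon, CLEC4C, LILRA4 and GZMB were listed at 0 in both groups, and the list summed to 7.50 and 8.07, with IL3RA the most abundant. The 7 fibroblast markers, 2 of them with a mean of at least 1, summed to 6.40 in siNT and 42.2 in siPAX9, with DCN the most abundant at 5.85 and 37.9, COL1A1 at 0.454 and 4.13, COL3A1 listed at 0 in both groups and COL1A2 listed at 0 in siNT. The 5 endothelial markers summed to 3.95 and 2.49, with PECAM1 the most abundant in siNT and KDR in siPAX9. The summed leukocyte and fibroblast lists were thus higher in siPAX9, as the members were, and their part in the result was not tested.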

How the data were processed

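RNA-seq of siNT and siPAX9 MCF10A cells was analysed from 1 deposited table. According to the submitters' processing notes and the study's methods, the authors aligned reads to hg19 with Bowtie2 and quantified transcripts with Cufflinks within Partek software. The deposited values used here are FPKM, which the authors had combined into 1 value per locus and group. How libraries were scaled against each other is not given in the sources used here. The table also holds the authors' own log2 fold change, test statistic, p-value, q-value and significance call, which were not used. It has 0 columns of values per sample, and it does not give the depth of each sample, for which the methods of the study state only a range of total reads.

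The symbol cell was split at commas, and the row with the highest mean FPKM was kept for a symbol with several rows. Ratios and log2 changes were computed without a pseudocount. A gene was measured with a mean FPKM of at least 1 and a value above 0 in both groups, and 2-fold was the threshold. Of the symbols, 119 reached that mean but were listed at 0 in 1 group and were left out. With 1 combined value per group, neither the limma test nor any other could be run.

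The members, gene lists and markers were chosen with earlier results of these data known. Named genes were the members, PAX9 and genes of the lists; in lists with over 12 measured genes, those past 2-fold by size and then the most abundant others. RIPK4, KIF20B and LIPA were named after their values were seen. Some genes of the lists are not reported here by name. FTSJD2 of the lists was matched to CMTR1 by the RefSeq synonyms. Gene models were from GENCODE on GRCh37, whose chromosomes carry the hg19 coordinates, and the rows of all 10 members overlapped their genes there. Promoter windows were from RefSeq on GRCh38.p14. The alternatives covered the pseudocount, the minimum FPKM, the choice of rows, centring and the fold threshold. The steps were tested on simulated data. Python 3.11.15, numpy 2.4.6, pandas 2.3.3, scipy 1.17.1 and matplotlib 3.10.9 were used.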

Additional observations from a re-analysis of the deposited data

Results flagged for a closer look

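Rows without a gene symbol, which the comparisons of the report did not use, also lay within or next to the places of the members. Within 1000 bases of those places there were 5 such rows, and all 5 had a higher FPKM in siPAX9 than in the siNT control and were at least 2-fold higher. Of all 13787 rows without a symbol and with an FPKM above 0 in both groups, 54.5% were higher in siPAX9 and 25.1% at least 2-fold higher. Of the 5 rows, 4 lay between IFIT1 and IFIT5 on chromosome 10 of hg19. The row at chr10:91170844-91171305 stood at 0.457 FPKM in the siNT group against 1.24 in siPAX9. The row at chr10:91171624-91172286 had 0.113 and 0.772, and that at chr10:91172364-91172904 had 0.254 and 1.23. The row at chr10:91173570-91174218 ends 106 bases before IFIT5 and had 1.20 and 2.65. In GENCODE they lie within the span of the long LIPA isoform on the opposite strand, whose exons cover 132 bases of the third and 55 bases of the fourth.

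The remaining row, at chr12:113415555-113416011, ends 217 bases before OAS2 and stood at 0.108 FPKM in the siNT group against 1.12 in siPAX9, a 10.4-fold difference beside the 10.5-fold difference of OAS2. A long noncoding RNA on the opposite strand spans it, with 0 exonic bases in it. Whether these rows belong to transcripts of the members was not tested.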

How the results depend on the processing

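No paired analysis was possible because the table holds 1 combined value per group, and for the same reason leaving out each replicate and the replicate block were not run. Under all 12 alternatives no member was at least 2-fold lower. Since all 10 members were higher with the main settings, only centring could have changed this. Centring reversed none of the 13 changes and ratios of members and families. A value added to both groups cannot reverse a direction, and the choice of rows left the members as they were, since each has 1 row of its own. With the main settings, 6 of the 9 measured members were at least 2-fold higher. This count was 3 with a mean FPKM of at least 5, which leaves 5 members, and 3 with an siNT FPKM of at least 1, an alternative chosen after seeing the data, as was leaving out short noncoding RNAs. The median log2 change of the measured members was 1.54. It was 1.497 with 0.1 added to each FPKM, 1.21 with 1 added, 1.26 with a mean of at least 5, 1.83 with no minimum, 1.61 after centring and 1.11 with an siNT FPKM of at least 1. With 1 added, the log2 change was 0.21 in place of 3.59 for MX2, 1.67 in place of 4.01 for MX1, 3.07 in place of 4.41 for IFIT1 and 2.16 in place of 3.40 for OAS2, and the ratio of the summed MX genes was 3.30 in place of 15.7. OAS1 was past 2-fold only after centring, at 1.04.

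The shares of measured genes at least 2-fold higher and lower were 4.80% and 4.93% with 1 added, 10.8% and 7.39% with a mean of at least 0.1, 3.95% and 5.44% with a mean of at least 5, 13.7% and 8.15% with no minimum, 7.08% and 5.68% after centring, and 4.29% and 7.23% with an siNT FPKM of at least 1. At 1.5-fold they were 13.3% and 16.5%, and at 4-fold 2.25% and 1.18%. The other interferon response effectors that were at least 2-fold lower numbered 2 after centring, and 0 were lower at 4-fold. Apart from the minimum and threshold, which set how many genes enter a count, the cause was not tested. The table does not give the number of reads behind an FPKM, and low values such as those of MX2 rest on the fewest.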

Other observations

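Several interferon-responsive genes lay close to the 2-fold threshold, so that counts past it depend on small differences. OAS1 was 1.95-fold higher in siPAX9, IFIH1 1.94-fold and TRIM22 1.98-fold, just under it. GBP3 was 2.00-fold and GBP1 2.01-fold higher, just over it.

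Among the interferon response effectors with a mean FPKM under 1, XAF1, a gene of apoptosis, stood at 0.0103 FPKM in the siNT group against 0.255 in siPAX9. The chemokine gene CXCL10 had 0.312 and 1.32, and LGALS9, encoding a galectin, had 0.276 and 1.20. EPSTI1 was at 0.0337 and 0.0384. These genes were chosen after their values were seen.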
